A study of Mus musculus with 6 samples.

Results

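The genes described here are 10 transcriptional targets of p53 among the 18194 genes named on the array, and they do work of different kinds. Sesn1, Sesn2, Ddit4, Ddit4l and Gadd45a restrain growth signalling through mTOR or answer stress, and Rrm2b, Xpc, Ddb2, Polk and Ercc5 supply nucleotides or repair DNA. They were chosen by name, as p53 targets of these 2 kinds, and compared over 6 mouse Affymetrix arrays. A gene was represented by its brightest probe set, the group of oligonucleotides that reads 1 transcript, among those annotated with that gene alone. The 10 genes had 22 such probe sets, 11 in each set of 5, and all 10 genes passed the filter on dim genes.

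The cells were tumour cells of the ovarian surface epithelium, the layer that covers the ovary, cultured without passage after trypsin digestion. The labels call all of them P/K cells without spelling the letters out, of mixed background strain, and give no promoter or Cre line. The 3 groups, with 2 arrays each, had wild-type p53, wild-type p53 together with the R172H mutant (heterozygous), or R172H alone (homozygous). Wild-type animals were 9 weeks old, heterozygous animals 9 and 12 weeks, and homozygous animals 4 weeks, so homozygosity and age cannot be told apart. The source field of the homozygous samples names a relative of p53 in its place, and the titles were followed. The heterozygous arrays came from animals of different ages, so they are not repeats of a single sample. For the wild-type and homozygous groups no label says that the arrays came from separate animals. The p-values therefore measure the spread between arrays, which in those groups may be technical.

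p53 is a transcription factor activated by DNA damage and other stress, and R172H lies in the domain with which it binds DNA. Sestrins hold back mTORC1, the kinase complex that drives protein synthesis and growth, by acting on its amino acid sensing arm, and the related proteins of Ddit4 (REDD1) and Ddit4l (REDD2) hold it back through the TSC complex. Xpc and Ddb2 recognise damaged bases at the start of nucleotide excision repair, Ercc5 cuts the damaged strand, Polk copies past lesions, and Rrm2b makes deoxynucleotides outside S phase. Several of these genes also answer signals other than p53, among them low oxygen for Ddit4 and amino acid or endoplasmic reticulum stress for Sesn2.

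The stretches before the transcription starts of the 3 genes that passed the test in at least 1 comparison, Ddit4, Ddit4l and Sesn1, are shown with that of Ercc5, whose signal was nearly level. RefSeq (GRCm38.p6) start sites were matched for 7 of the 10 genes, with 9 start sites in all; Rrm2b, Xpc and Ddb2 were not matched. Each sequence holds the 250 bases before the start, written 5′ to 3′ on the gene's strand. Capitals mark ACGTG and GCGTG, the cores bound by hypoxia-inducible factors, and the 10-base p53 half-site consensus, each searched on both strands. They run at chr10:59951771-59952020 (minus strand) for Ddit4, chr3:137623422-137623671 (plus) for Ddit4l, chr10:41810324-41810573 (plus) and chr10:41887189-41887438 (plus) for the first and second start of Sesn1, and chr1:44147494-44147743 (plus) for Ercc5.
Ddit4: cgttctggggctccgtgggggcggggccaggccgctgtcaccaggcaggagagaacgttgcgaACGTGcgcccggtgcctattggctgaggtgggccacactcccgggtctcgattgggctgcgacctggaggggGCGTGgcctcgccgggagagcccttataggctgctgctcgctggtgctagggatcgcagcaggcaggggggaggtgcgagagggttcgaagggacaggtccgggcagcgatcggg
Ddit4l: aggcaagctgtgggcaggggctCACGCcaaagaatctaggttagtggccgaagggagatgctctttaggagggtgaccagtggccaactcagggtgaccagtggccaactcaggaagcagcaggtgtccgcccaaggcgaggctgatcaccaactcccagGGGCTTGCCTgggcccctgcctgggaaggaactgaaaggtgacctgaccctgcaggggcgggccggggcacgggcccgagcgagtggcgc
Sesn1, first start: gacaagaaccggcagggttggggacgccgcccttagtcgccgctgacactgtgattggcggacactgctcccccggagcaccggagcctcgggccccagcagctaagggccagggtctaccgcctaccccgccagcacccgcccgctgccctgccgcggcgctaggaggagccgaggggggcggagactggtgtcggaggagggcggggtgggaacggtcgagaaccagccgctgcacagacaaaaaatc
Sesn1, second start: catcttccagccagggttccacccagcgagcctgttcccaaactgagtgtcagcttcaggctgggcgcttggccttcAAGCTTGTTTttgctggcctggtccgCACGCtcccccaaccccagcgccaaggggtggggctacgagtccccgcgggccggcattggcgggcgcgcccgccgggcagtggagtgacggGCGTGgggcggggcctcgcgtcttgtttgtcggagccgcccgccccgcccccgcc
Ercc5: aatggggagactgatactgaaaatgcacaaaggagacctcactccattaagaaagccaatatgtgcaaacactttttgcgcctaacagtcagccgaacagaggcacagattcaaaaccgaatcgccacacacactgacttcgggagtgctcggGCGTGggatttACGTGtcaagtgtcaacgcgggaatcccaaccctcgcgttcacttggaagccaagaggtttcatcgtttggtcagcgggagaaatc

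The Ddit4 stretch held ACGTG, beginning 187 bases before the start, and GCGTG, beginning 115 bases before it. Ercc5 held the same pair of cores at 86 and 97 bases. GCGTG was also found 228 bases before the Ddit4l start, and 147 and 55 bases before the second Sesn1 start. ACGTG was found in 16.6% and GCGTG in 28.2% of the 32851 stretches of this length. A p53 half-site match, present in 7.13% of them, lay 90 bases before the Ddit4l start and 173 bases before the second Sesn1 start, and also 40 bases before that of Gadd45a and 231 bases before the first start of Polk. The core of ATF4 composite sites, TGATGNAA (3.45%), and the FOXO core GTAAACA (3.17%) were absent from all 9 stretches. These are matches of letters, and no match is known to be bound in these cells.

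All 5 growth and stress genes had a lower mean signal in cells homozygous for R172H than in wild-type cells. Ddit4l was 12.7-fold and Ddit4 8.95-fold below wild-type cells, and both fell. Sesn1, Gadd45a and Sesn2 had signals 2.98-fold, 3.02-fold and 2.37-fold below wild-type without passing the test. The nucleotide and repair genes lay between 1.02-fold and 1.53-fold below, and none passed. In heterozygous cells no gene of either kind passed, and all 5 growth and stress genes had a mean nearer to the wild-type than to the homozygous level, Sesn2 by little. In the other Sesn2 probe set the heterozygous mean lay nearer to the homozygous level. Tests are limma's moderated tests on log2 signal in 1 fit of all 6 arrays, with Benjamini-Hochberg adjustment over 10916 tested genes and a threshold of 0.05, and errors are standard errors (SE).

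**Figure D1:**
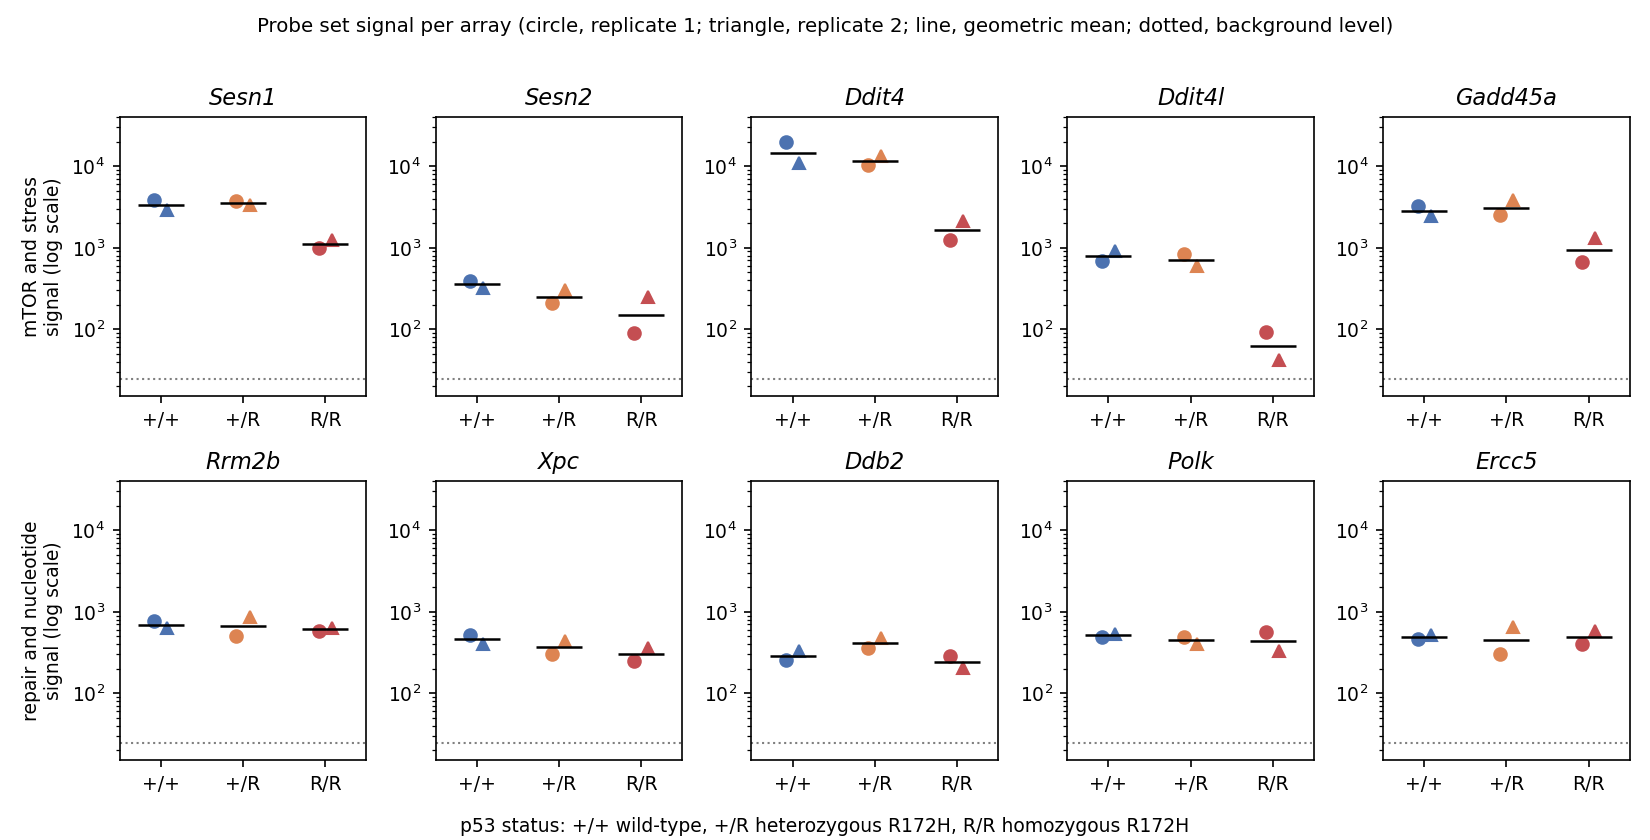
Signal of each gene's brightest probe set in each of the 6 arrays, on a log axis, by p53 status, with the geometric mean of each group as a line and the background level of 24.5 dotted. Homozygous arrays lie under all wild-type arrays for the 5 genes in the upper row and for Rrm2b and Xpc in the lower row. The same holds for 33.8% of all tested genes. In the lower row the groups lie close together.

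The homozygous arrays stood apart from the others and from each other, which bears on every value here. Between the homozygous arrays the SD of the log2 difference over tested genes was 1.30, against 0.60 for the wild-type and 0.55 for the heterozygous pair, so that 72.6% of the within-group variance came from the homozygous pair. The smallest SD of any pair, 0.31, was between wild-type array 2 and heterozygous array 1, arrays of different groups. As to cell identity, all 12 markers of the ovarian surface epithelium were above background in every wild-type and heterozygous array. In homozygous array 1 all but Aldh1a2 were, which is named after its values were seen, and in array 2 all were, with a summed signal of 58529 and 68825 against 140714 to 201291 in the other arrays. Between homozygous and wild-type cells 11 of the 12 had a negative log2 difference, with a median of -2.17, where 54.6% of all tested genes were negative. Of the 12, 1 fell, Upk1b, where 2.25% of all tested genes fell. Summed signals of 11 macrophage markers were 487 and 722 against 2559 to 5579, with 5 and 7 of the 11 under background in the homozygous arrays and 0 in the others. Those of 8 endothelial markers were 1911 and 2744 against 9083 to 10908, and of 9 granulosa and theca markers 721 and 3271 against 4046 to 8888. Those of 5 epithelial markers were 150 and 263 against 1311 to 1906, and of 8 fibroblast markers 32416 and 113307 against 64646 to 75776. In the wild-type and heterozygous arrays too, 2 to 5 of the 8 endothelial markers were under background. The same held for 1 to 3 of the 9 granulosa and theca markers. The sums of these 2 lists therefore rest on their brighter members, and do not show that such cells were present. Fewer cells of a type and less RNA per cell cannot be told apart in such bulk samples, and the part of these markers in the results below was not tested.

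Ddit4 encodes REDD1, a short-lived inhibitor of mTORC1 that acts through TSC1 and TSC2. Its signal was 19887 and 10900 in the wild-type arrays, 10347 and 13305 in the heterozygous arrays, and 1256 and 2153 in the homozygous arrays. Wild-type and heterozygous arrays overlapped, and both homozygous arrays lay far under all 4 of them. Ddit4 fell by 3.16 ± 0.43 on the log2 scale in homozygous against wild-type cells (limma adjusted p = 0.0370, n = 2 arrays per group), with a 95% interval from -4.25 to -2.08. Against heterozygous cells it fell by 2.83 ± 0.43 (limma adjusted p = 0.0404). A single probe set reads this gene.

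Ddit4l encodes REDD2, a relative of REDD1 known best from muscle. Its signal was 693.1 and 923.1 in wild-type, 827.5 and 591.3 in heterozygous, and 93.25 and 42.31 in homozygous arrays. Here too the first 2 groups overlapped, and the homozygous arrays lay well below them but above the background level of 24.5, the highest value of bacterial control probe sets that should have no target. Ddit4l fell by 3.67 ± 0.45 against wild-type cells (limma adjusted p = 0.0317, interval -4.82 to -2.53) and by 3.48 ± 0.45 against heterozygous cells (limma adjusted p = 0.0341). Its 2 other probe sets were also lower in both homozygous arrays than in any other array. One of them had a log2 difference of -3.14, and in the other both homozygous arrays were under background, which gives at least a 10.3-fold lower signal.

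Sesn1 encodes a sestrin that is a classical p53 target. Its signal was 3865 and 2867 in wild-type, 3735 and 3365 in heterozygous, and 993.3 and 1255 in homozygous arrays. The homozygous arrays were the lowest and close together, and the heterozygous arrays lay within the wild-type range. Sesn1 fell by 1.67 ± 0.27 against heterozygous cells (limma adjusted p = 0.0431). Against wild-type cells the difference was -1.58 ± 0.27 (interval -2.26 to -0.89), and its adjusted p of 0.0524 by limma narrowly missed the threshold. Of the 3 other probe sets, 2 had log2 differences of -1.58 and -1.96 against wild-type cells, and the dimmest, with 2 arrays under background, had -0.59.

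Sesn2 encodes a sestrin that also senses leucine and is induced by stress of the endoplasmic reticulum. Its signal was 393.2 and 321.4 in wild-type, 212.3 and 299.2 in heterozygous, and 91.17 and 247.4 in homozygous arrays. All 4 heterozygous and homozygous arrays lay under both wild-type arrays, while homozygous array 2 lay within the heterozygous range and array 1 well under it. The difference from wild-type cells was -1.24 ± 0.52 (limma adjusted p = 0.189) with an interval from -2.56 to 0.07. It was -1.96 without homozygous array 2 and -0.52 without homozygous array 1. The other probe set gave a log2 difference of -0.77 from wild-type cells. In that probe set heterozygous cells differed by -0.65 from wild-type cells, and homozygous cells by only -0.13 from heterozygous cells.

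Gadd45a encodes a small stress protein that binds PCNA, activates p38 and JNK signalling through Map3k4, and helps to arrest the cycle before mitosis. Its signal was 3234 and 2460 in wild-type, 2509 and 3827 in heterozygous, and 666.2 and 1310 in homozygous arrays. Both homozygous arrays lay under the other 4. Its log2 difference was -1.59 ± 0.43 against wild-type cells (limma adjusted p = 0.0970) and -1.73 ± 0.43 against heterozygous cells (limma adjusted p = 0.0794), and neither passed. The intervals, -2.68 to -0.51 and -2.81 to -0.65, lay below 0 before adjustment.

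**Figure D2:**
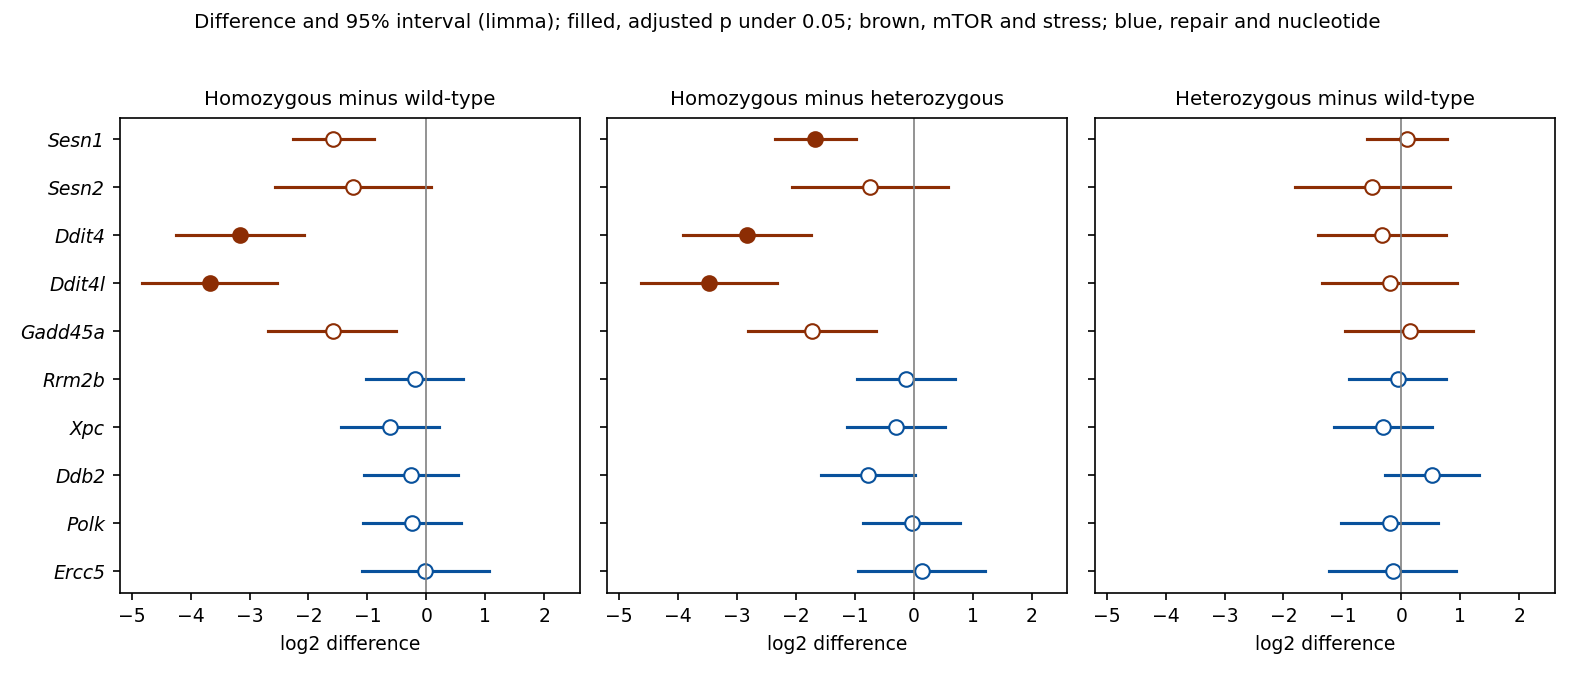
Log2 difference with its 95% interval (limma) for the 10 genes in the 3 comparisons, with filled points at an adjusted p under 0.05. In the first 2 panels the filled points are Ddit4, Ddit4l and, against heterozygous cells, Sesn1, and in the last panel every interval spans 0.

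Rrm2b encodes the small subunit of ribonucleotide reductase that p53 induces. Its signal was 764.5 and 634.9 in wild-type, 511.7 and 870.1 in heterozygous, and 586 and 629.1 in homozygous arrays. The heterozygous arrays spanned all the others. The log2 difference between homozygous and wild-type cells was -0.20 ± 0.32 with an interval from -1.02 to 0.62. Of its 3 other probe sets 1 gave 0.22 and the others -0.43 and -0.63.

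Xpc, which finds distorted DNA for excision repair, had the lowest homozygous value of the repair genes relative to wild-type cells. Its signal was 521.2 and 406.9 in wild-type, 307.3 and 444.1 in heterozygous, and 250.3 and 359.7 in homozygous arrays. The homozygous arrays lay under the wild-type ones and overlapped the heterozygous ones. The log2 difference from wild-type cells was -0.62 ± 0.33 (limma adjusted p = 0.265), with an interval from -1.45 to 0.21.

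Ddb2, which recognises ultraviolet lesions together with Ddb1, was the 1 gene whose heterozygous arrays were both above the wild-type arrays. Its signal was 253.8 and 331.8 in wild-type, 357 and 480.9 in heterozygous, and 289.3 and 201.9 in homozygous arrays. The log2 difference was 0.51 ± 0.32 between heterozygous and wild-type cells (limma adjusted p = 1.00) and -0.78 ± 0.32 between homozygous and heterozygous cells (limma adjusted p = 0.171), and neither passed. Its other probe set did not repeat the higher heterozygous level, with a log2 difference of -0.07 from wild-type cells. Between homozygous and wild-type cells that probe set gave -0.64 without overlap of the arrays, and the probe set used gave -0.26.

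Polk, a polymerase that copies across bulky lesions, and Ercc5, the XPG endonuclease, also had groups that overlapped or lay close together. The Polk signal was 490.4 and 537.4 in wild-type, 488.8 and 407.3 in heterozygous, and 565.8 and 332 in homozygous arrays, and the homozygous arrays spanned the other 4. Ercc5 had 469.4 and 521.2, 307.9 and 646.2, and 402.8 and 588 in the same order, with the heterozygous arrays spanning the rest. Their log2 differences between homozygous and wild-type cells were -0.24 ± 0.33 (interval -1.07 to 0.58) and -0.02 ± 0.43 (interval -1.10 to 1.06). A second Ercc5 probe set was under background in all 6 arrays and gives no level. The second, dimmer Polk probe set gave -0.46, with both homozygous arrays under both wild-type arrays.

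Set side by side, the growth and stress genes had a median log2 difference of -1.59 in homozygous against wild-type cells, and 2 of 5 fell, while the nucleotide and repair genes had a median of -0.24 and 0 of 5 were called by limma (0 at an unadjusted p under 0.05). Over all tested genes 2.25% fell in this comparison and the median was -0.09. Homozygous and wild-type arrays did not overlap, with the homozygous ones lower, for 5 of 5 of the first set and for 2 of 5 of the second (Rrm2b and Xpc), against 33.8% of all tested genes. Differences were negative for all 10 genes and for 54.6% of all tested genes. Against heterozygous cells the medians were -1.73 and -0.14, with 3 of 5 and 0 of 5 called by limma (0 of the second set at an unadjusted p under 0.05), where 3.22% of tested genes fell. Homozygous arrays lay under both heterozygous arrays for 4 of 5 and, with Ddb2, 1 of 5, against 34.2% of tested genes. For the repair genes 2 of 5 is close to the share of all genes. The contrast was smaller in the probe sets not used. The 6 others of the repair genes had a median of -0.55 against wild-type cells. In 4 of these the homozygous arrays were lower without overlap, and 1 had arrays under background. The 6 others of the growth and stress genes had a median of -1.77, with 6 lower without overlap and 2 with arrays under background. The medians are described and not tested, since the genes of a set are not replicates.

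The direction differed in how firmly it held. All 5 growth and stress genes kept a negative difference between homozygous and wild-type cells in each of 18 alternative settings in which they could be fitted. In several of these the difference could not move. They change only the genes tested, the error model, the replicate block or the heterozygous arrays, and so leave both group means as they were. The small negative differences of the repair genes turned positive for Rrm2b, Ddb2, Polk and Ercc5, at 0.35, 0.28, 0.30 and 0.52, when arrays were centred on their medians, a step that moved the median of all tested genes from -0.09 to 0.45. Ercc5 lay above that median, and the 4 other repair genes below it, in both scalings. That centring also moved the split of all calls from 246 lower and 45 higher genes to 147 lower and 103 higher.

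The calls stood close to the threshold. With no filter on dim genes, or with only the groups compared in the fit, 0 of the 10 genes were called. In these settings 0 of all tested genes were called against wild-type cells. Against heterozygous cells 17 of 18194 and 9 of 10916 were called, in the same order. Sesn1 lost its call against heterozygous cells when its probe sets were averaged (limma adjusted p = 0.0748), and against wild-type cells it passed in 4 settings that keep all arrays, among them signals raised to background (limma adjusted p = 0.0400). Leaving out any 1 of the wild-type or heterozygous arrays left 0 of the 10 genes called, with log2 differences from wild-type cells between -3.60 and -2.73 for Ddit4 and between -3.88 and -3.46 for Ddit4l. In those fits 0 of 10916 genes were called against wild-type cells. Fits without 1 of the homozygous arrays rest on a lone homozygous array, and their sizes only are given. Without homozygous array 1 the log2 differences from wild-type cells were -4.24 for Ddit4l, -2.77 for Ddit4 and -1.41 for Sesn1. They were -1.11 for Gadd45a and -0.52 for Sesn2. Without homozygous array 2 that of Sesn2 was -1.96.

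**Figure D3:**
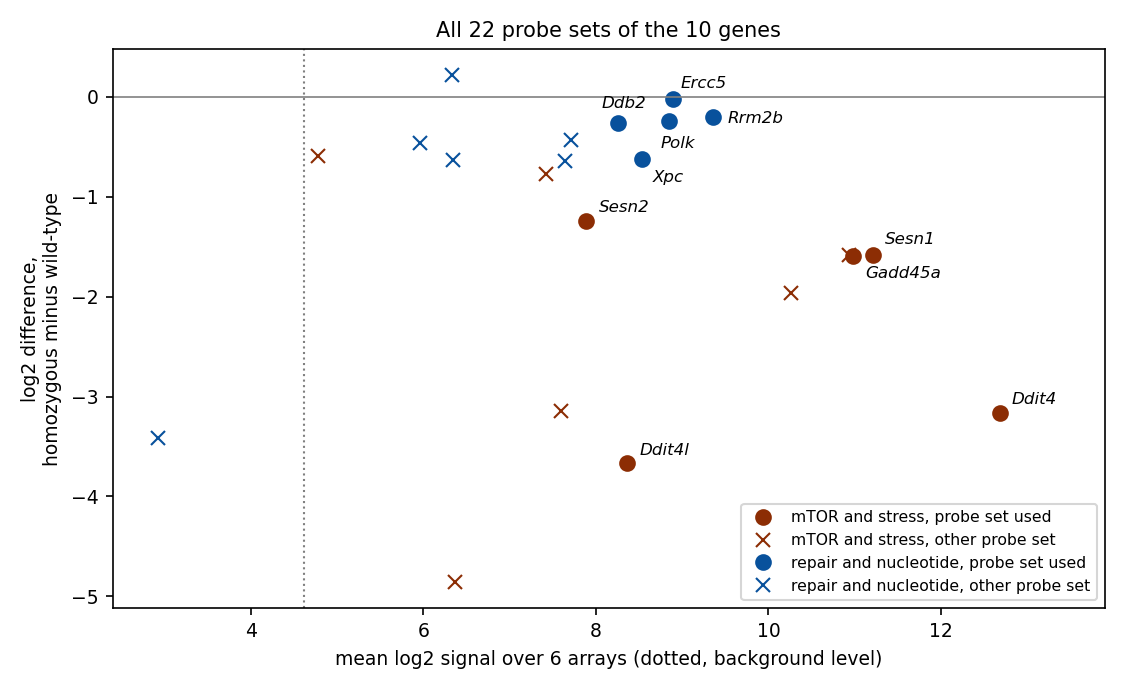
Log2 difference between homozygous and wild-type cells for all 22 probe sets of the 10 genes, against the mean log2 signal over the 6 arrays. Probe sets of the growth and stress genes (brown) lie between -4.86 and -0.59, and those of the repair genes (blue) lie between -0.64 and 0.22 except 1 under background at -3.42.

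With a wild-type allele present no fall of a growth or stress gene passed the test. Between heterozygous and wild-type cells the log2 differences were 0.09 for Sesn1, -0.50 for Sesn2, -0.33 for Ddit4, -0.19 for Ddit4l and 0.14 for Gadd45a, and those of the repair genes lay between -0.32 and 0.51. By limma 0 of the 10 genes passed (0 at an unadjusted p under 0.05), as did 0.00% of all tested genes, of which 71 had an unadjusted p under 0.05. The intervals do not show that the groups are alike: that of Ddit4 reached from -1.41 to 0.76 and that of Ddit4l from -1.34 to 0.95. Sesn2 and Polk had both heterozygous arrays under both wild-type arrays, as did 12.8% of tested genes, and the higher heterozygous arrays of Ddb2 had their like in 13.2%.

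The heterozygous level was also set against the midpoint between the wild-type and homozygous levels on the log2 scale. It lay above it by 1.64 ± 0.39 for Ddit4l, 1.25 ± 0.37 for Ddit4, 0.93 ± 0.37 for Gadd45a and 0.88 ± 0.23 for Sesn1, and by 0.13 ± 0.45 for Sesn2. By limma 0 of the 10 passed, with adjusted p from 0.334 to 0.404 for the first 4 and 3 of the 10 at an unadjusted p under 0.05, and 0 of 10916 genes passed (1352 at an unadjusted p under 0.05). Among the repair genes the values lay between -0.14 and 0.65.

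Likeness between profiles was measured as the Euclidean distance of log2 signals over the 6 arrays, each gene centred on its mean. Sesn1 and Gadd45a were the closest pair of the growth and stress genes, at 0.71, and Rrm2b lay at 0.55 from both Xpc and Ercc5. Sesn2 was nearer to Xpc (0.92) than to Gadd45a (1.05). Among all tested genes the nearest to Ddit4l was Fas, a death receptor and itself a p53 target, at 0.48, followed by Ppfibp2 (0.49) and Esyt3 (0.67). Those nearest to Ddit4 were Gnpda1 (0.35), Nat8f4 (0.49) and Rtl6 (0.56), and to Sesn1 Rab15 (0.21), Plod1 (0.26) and Tmem41a (0.28). In the homozygous arrays Fas had signals of 24.8 and 11.8 and Nat8f4 of 11.9 and 26.3, each with 1 under background. Their distances are therefore less certain. Such distances over 6 arrays mostly reflect the gap between the homozygous arrays and the rest, which many genes share.

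Among the genes of the machinery on which the growth and stress genes act, calls were about as frequent as among all genes. Of 38 tested genes of the mTORC1 pathway 1 fell, 0 rose and 37 did not pass, where 2.25% of all tested genes fell. Their median log2 difference between homozygous and wild-type cells was 0.10, with 13 negative and 25 positive. Rragd, a Rag GTPase that brings mTORC1 to the lysosome, gave 390 and 556 as its signal in wild-type, 534 and 786 in heterozygous, and 25.1 and 10.6 in homozygous arrays, the last under background. It fell by 4.84 ± 0.49 (limma adjusted p = 0.0219), and the log2 difference was -4.23 with signals raised to background. The 2 brightest members, Lamtor1, a lysosomal anchor, and Rheb, the GTPase that activates mTORC1, had differences of -0.60 ± 0.22 and 0.08 ± 0.26. Of 10 genes of the GADD45 family and its kinase partners 0 were called by limma (1 at an unadjusted p under 0.05), where 2.67% of all tested genes were called, and the median was 0.18.

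**Figure D4:**
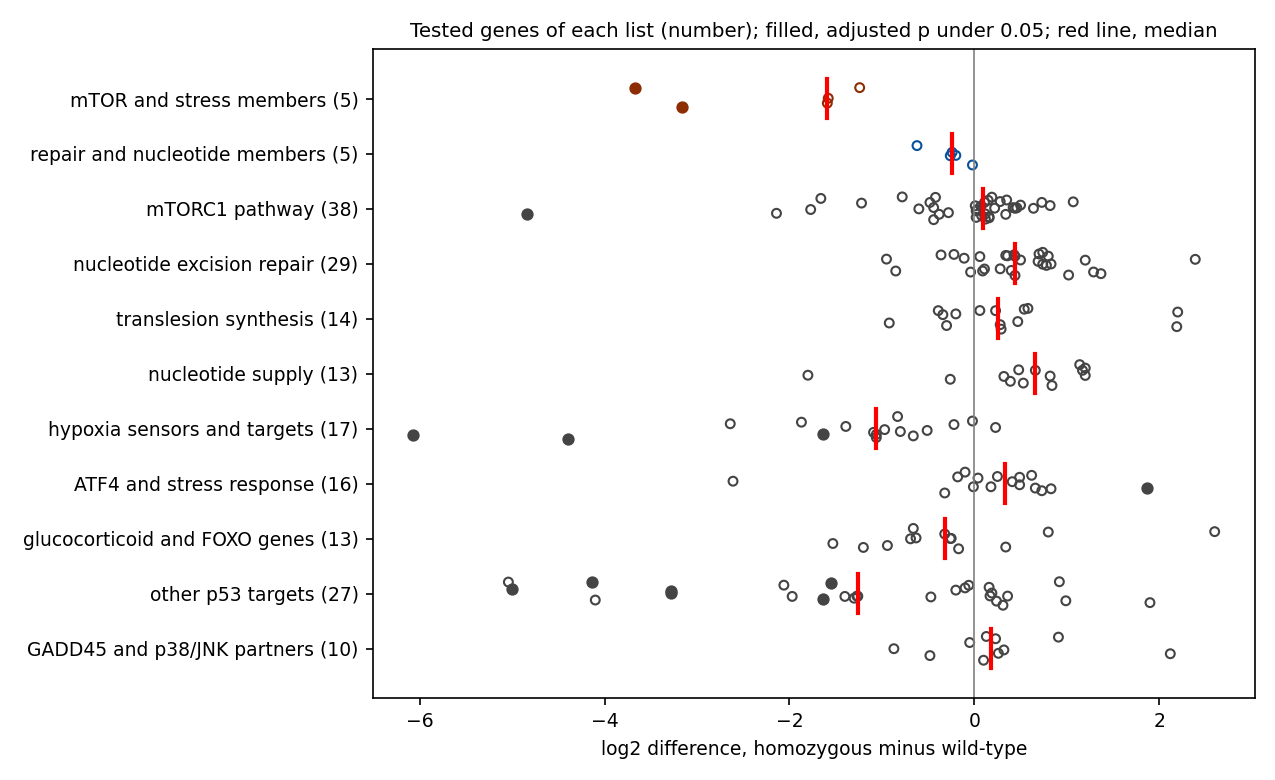
Log2 difference between homozygous and wild-type cells for the 10 genes and the tested genes of the pathway lists, cell type markers left out, with filled points at an adjusted p under 0.05 (limma) and red lines at the medians. The growth and stress members, the hypoxia genes and the other p53 targets have medians at or below -1.06, and the other lists lie between -0.32 and 0.66.

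Partners of the repair genes were mostly positive, without any call. Of 29 other nucleotide excision repair genes 23 were positive, with a median of 0.44, and of 13 nucleotide supply genes 11 were positive, with a median of 0.66. Of 14 translesion synthesis genes 9 were positive, with a median of 0.26. Of all tested genes 45.4% were positive, with a median of -0.09. With arrays centred on their medians the 3 list medians were 0.98, 1.21 and 0.80 in the same order, beside 0.45 for all tested genes. By limma 0 genes of these 3 lists passed (7, 2 and 3 at an unadjusted p under 0.05), against 2.67% of all tested genes. The signal of Pcna, the replication clamp, was 6797 and 13331 in the wild-type against 19901 and 13400 in the homozygous arrays. That of Rrm1, the large subunit shared by Rrm2b and Rrm2, was 7067 and 9578 against 10069 and 11465. These signals differed as much within the wild-type pair as between the groups.

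Lists of sensors and targets of other signals, and of other p53 targets, differed among themselves. Of 17 genes of hypoxia sensing and response 16 were negative, with a median of -1.06, where 54.6% of all tested genes were negative, and 3 fell, where 2.25% of all tested genes fell. Car9, a carbonic anhydrase of low oxygen, fell by 6.07 ± 0.54, Ndrg1 fell by 4.40 ± 0.31 and Bnip3, a mitophagy receptor, fell by 1.64 ± 0.24. With median centring 13 of the 17 were negative, as were 3333 of 10916 tested genes, and the call of Bnip3 was lost. The signal of Hif1a, the oxygen-regulated factor itself, was 12257 and 12738 in the wild-type against 11863 and 12811 in the homozygous arrays. Of 16 genes of ATF4 and the integrated stress response 1 rose, Mthfd2 by 1.87 ± 0.27, where 0.412% of all tested genes rose, and the median was 0.33. Of 13 tested glucocorticoid and FOXO genes 0 were called by limma (5 at an unadjusted p under 0.05), where 2.67% of all tested genes were called. Their median was -0.32, and 0.23 with median centring, beside -0.09 and 0.45 for all tested genes. Of 27 other p53 targets 6 fell and 0 rose, with a median of -1.26, where 2.25% of all tested genes fell and 0.412% rose. The 6 were Cdkn1a, Ccng1, Fas, Eda2r, Cd82 and Ephx1, and with median centring 2 of them, Cdkn1a and Eda2r, kept their call. Of these Ephx1, an epoxide hydrolase, fell by 3.28 ± 0.44 from signals of 3144 and 4984 in the wild-type arrays to 569 and 291 in the homozygous ones.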

How the data were processed

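RNA of 6 samples was hybridised to single-colour Affymetrix arrays. The deposited values are linear probe set intensities. The submitters' processing notes name RMA, with no version given in the sources used here, whereas the values are not log2 and every array has the same trimmed mean of 500 (middle 96%), the form of MAS 5.0 signals. No background filter was applied to them. They were log2-transformed as they stand, with no offset; linear signals spread widely near background, so folds of dim genes are uncertain. Arrays have no count depth, and their number limits the precision.

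Of 45101 probe sets, 34958 named 1 gene symbol (34754 updated by Entrez identifier through a RefSeq table), 932 several and 9211 none; only the first were used. Genes with a mean signal at or above the 40th percentile (60.2) were tested, which left 10916 of 18194. The transcript of the mutated gene is not reported here. Group means were fitted by limma 3.58.1 under R 4.3.3 (3 residual and 2.26 prior degrees of freedom) and checked on simulated data. Text searches and figures used Python 3.11.15 and matplotlib 3.10.9. The genes, lists and rules were chosen with earlier results of these data known. By the rule for naming, the text names all 10 genes, from the lists only members that were called or are among a list's 2 brightest, not every one of these, apart from 1 marker said to be an exception, and the 3 nearest profiles of each called gene. Alternatives were the filter, normalisation, floor, pseudocount, probe set summary, samples fitted, variance model, replicate block and each array left out.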

Additional observations from a re-analysis of the deposited data

How the results depend on the processing

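Counts of the 10 genes called, which were 2 against wild-type and 3 against heterozygous cells, moved as follows. They were 0 and 0 with no filter on dim genes, 0 and 0 with only the groups compared, and 0 and 0 with the replicate block. With arrays centred on medians they were 1 and 1 (Ddit4), and with a variance for each group 1 against heterozygous cells (Ddit4l). They were 3 and 3 with signals raised to background, a pseudocount of 16 or an intensity trend, as Sesn1 then passed against wild-type cells (limma adjusted p 0.0400, 0.0410 and 0.0344). With the filter at the 60th percentile they were 2 and 2, Ddit4 and Sesn1 (0.0371 against wild-type cells), and with probe sets averaged 2 and 2, without Sesn1 (0.0748 against heterozygous cells). With 1 array left out they ranged from 0 to 5 in both comparisons, and from 0 to 1 for the midpoint. Dropping both wild-type array 2 and heterozygous array 1 was an alternative chosen after seeing the data. That fit, and each fit with 1 array left out, leaves a lone array that is assumed to vary like the others. The assumption is weakest for a lone homozygous array, as the homozygous pair held 72.6% of the within-group variance. The median of the growth and stress genes minus that of the repair genes was -1.35 against wild-type cells, ranged from -1.83 to -1.05 with 1 array left out, and from -1.45 to -1.14 in the settings that keep all arrays.

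Of all tested genes 291 were called against wild-type and 446 against heterozygous cells. These counts became 0 and 17 with no filter, 431 and 519 with the filter at the 60th percentile (which drops Sesn2, Ddit4l, Xpc and Ddb2), 605 and 731 with signals raised to background, 604 and 718 with a pseudocount of 16, 571 and 690 with an intensity trend, 190 and 281 with probe sets averaged, 194 and 293 with a variance for each group, 0 and 9 with only the groups compared, and 0 and 19 with the replicate block. With 1 array left out they ranged from 0 to 2663 and from 0 to 2841. Deviations of same-numbered arrays from their group means correlated at -0.30, -0.10 and 0.16 in the 3 pairs of groups. These values do not settle whether same-numbered arrays were handled together.

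The differences that changed sign were all ones that had not passed. Between homozygous and wild-type cells they were, with median centring, Rrm2b (0.35), Ddb2 (0.28), Polk (0.30) and Ercc5 (0.52), and with quantile normalisation Ercc5 (0.06). Between homozygous and heterozygous cells they were Rrm2b (0.39), Xpc (0.22) and Polk (0.48) with median centring, Polk (0.04) with quantile normalisation, and Ercc5 (-1.53) with probe sets averaged, 1 of which is under background. Between heterozygous and wild-type cells they were Sesn1 (-0.12) and Rrm2b (0.11) with that averaging. With arrays left out, Polk ranged from -0.63 to 0.14 and Ercc5 from -0.30 to 0.25 against wild-type cells. Against heterozygous cells Rrm2b ranged from -0.52 to 0.25, Polk from -0.43 to 0.34 and Ercc5 from -0.41 to 0.66. Between heterozygous and wild-type cells Sesn1 ranged from -0.20 to 0.31, Ddit4 from -0.76 to 0.11, Ddit4l from -0.44 to 0.05, Gadd45a from -0.17 to 0.44, Rrm2b from -0.45 to 0.32 and Ercc5 from -0.68 to 0.46. The causes were not tested.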
